A study of Mus musculus with 82 samples.

Results

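ATP-binding cassette (ABC) genes were followed across 13 mouse mammary tumour models. Members were all genes of the deposited count table whose symbol is Abca to Abcg followed by a number and at most a single letter, which gave 50 of 47480 genes. RNA from 82 untreated tumours had been sequenced, and the models were 2153 (n = 7 libraries), 2208 (n = 12), 2224 (n = 4), 2225 (n = 10), 2250 (n = 11), 2336 (n = 5), 4T1 (n = 5), 9263 (n = 7) and T12 (n = 3) in BALB/c mice, KPB1-A (n = 2), MMTV-NEU (n = 8) and MMTV-PYMT (n = 5) in FVB mice, and E0771 (n = 3) in C57BL/6 mice. The labels give the model name, the strain and the tissue of each tumour, but no genotype, age or passage, and strain cannot be told apart from model for E0771. Libraries of a model are described by the submitters as biological replicates from individual tumours. Whether these came from separate animals is not stated, so p-values measure only the spread between these libraries, which may be partly technical.

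Libraries held 14.44 to 132.7 M counts (M for 1000000; median 58.2 M), and ABC members took 0.103% to 0.202% of them. Levels are given as CPM, the counts of a gene per 1000000 counts of a library after scaling by TMM, as mean ± SD over libraries unless said otherwise. Among 82 libraries, 81 were most similar to a library of their own model, and the exception was MMTV-PYMT replicate 5, closest to a library of another model. All 12 luminal epithelial markers passed the test as lower in T12 and in E0771, where their summed level was 231 to 399 CPM, against 674 to 8512 CPM in the other 76 libraries. Skeletal muscle markers reached 6285 CPM in a library of 2208 and 3822 CPM in a library of MMTV-PYMT.

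ABC proteins couple ATP hydrolysis to the movement of a substrate across a membrane, and most have a pair of membrane-spanning domains and a pair of nucleotide-binding domains. Families Abcb, Abcc and Abcg include pumps that expel drugs and drug conjugates from cells. Most Abca proteins and several Abcg proteins move cholesterol and phospholipid, Abcd proteins carry fatty acyl-CoA into peroxisomes or cobalamin out of lysosomes, and Abce and Abcf proteins lack membrane domains and act on ribosomes. In the mammary gland Abcg2 is known for carrying drugs and riboflavin into milk.

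The sequences below precede the transcription starts of members that the results turn on, and the pair Abcb1a and Abcb1b is shown because these neighbouring copies were highest in the same models over unequal ranges. They are from RefSeq on GRCm38.p6, 250 bases before the start, written 5′ to 3′ on the strand of the gene, and capitals mark CCAAT or ATTGG (the CCAAT box on either strand) and GGGCGG or CCGCCC (the GC box on either strand). For Abcg5 and Abcg8, which are transcribed away from each other, the 109 bases between their starts are shown on the plus strand, and capitals mark TTTATA, the TATA box TATAAA on the minus strand.
Abcb1a at chr5:8566841-8567090, plus strand: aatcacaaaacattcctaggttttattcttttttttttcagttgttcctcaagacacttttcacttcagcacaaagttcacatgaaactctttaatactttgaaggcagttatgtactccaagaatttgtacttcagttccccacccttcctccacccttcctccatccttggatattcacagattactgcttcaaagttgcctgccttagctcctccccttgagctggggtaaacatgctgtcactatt
Abcb1b at chr5:8797897-8798146, plus strand: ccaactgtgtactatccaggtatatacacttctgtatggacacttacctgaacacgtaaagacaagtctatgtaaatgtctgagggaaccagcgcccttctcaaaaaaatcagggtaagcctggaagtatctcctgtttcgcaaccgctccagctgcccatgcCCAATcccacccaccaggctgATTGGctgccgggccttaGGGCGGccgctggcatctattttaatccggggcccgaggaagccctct
Abcc4 at chr14:118706220-118706469, minus strand: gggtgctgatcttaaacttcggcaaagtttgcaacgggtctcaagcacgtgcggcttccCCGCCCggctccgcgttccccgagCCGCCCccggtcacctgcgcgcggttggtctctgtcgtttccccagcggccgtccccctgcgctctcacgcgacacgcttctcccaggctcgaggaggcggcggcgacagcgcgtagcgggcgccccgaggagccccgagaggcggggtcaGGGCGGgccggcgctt
Abcb6 at chr1:75180393-75180642, minus strand: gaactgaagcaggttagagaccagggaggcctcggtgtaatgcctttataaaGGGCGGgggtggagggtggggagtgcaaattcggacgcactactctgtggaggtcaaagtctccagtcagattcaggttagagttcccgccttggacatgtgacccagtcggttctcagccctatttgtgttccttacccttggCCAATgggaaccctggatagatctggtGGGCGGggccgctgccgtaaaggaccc
Abcg5 and Abcg8 at chr17:84683012-84683120, plus strand: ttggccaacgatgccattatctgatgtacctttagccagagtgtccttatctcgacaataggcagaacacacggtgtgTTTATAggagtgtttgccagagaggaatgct
The window of Abcb1b held 2 CCAAT boxes and 1 GC box, and that of Abcb1a held neither set of letters. Of 32841 RefSeq windows of 250 bases, 33.9% held a CCAAT box, 32.7% a GC box and 12.4% a TATA box. The stretch of 109 bases between Abcg5 and Abcg8 is shorter, so these shares do not apply to it. The window of Abcb6 also held 2 TATA matches, 1 on each strand, which overlap in the single stretch tttataaa and are not in capitals. A start was found for 38 of the 50 members, and several genes, Abcc4 among them, have more than 1. The RefSeq start of Abcb1a lies upstream of the GENCODE M21 gene at chr5:8660077-8748575, so which start these tumours used is not known from gene counts. A match of letters is a description and no binding site.

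Of the 50 members, 47 had enough counts to be tested, and Abca14, Abca15 and Abcb5 had not. All 47 differed among the 13 models (edgeR F test, adjusted p under 0.05), but so did 98.2% of the 22847 genes tested, so the share is near the background. Between their highest and lowest model means 29 members had at least a 10-fold gap, and 7 had a gap under 3-fold. The 29 include Abca16, Abca17, Abcb11, Abcc6, Abcg5 and Abcg8, whose lowest mean was 0, so that no ratio exists. Abca13, Abca16, Abca17, Abcc2 and Abcg8, also among them, averaged less than 1 CPM in every model. The share of all tested genes with such a gap was not counted. In 17 of 47 members every library of the highest model stood above every library of the next model, beside 22.5% of all tested genes. At the same time 26 members averaged at least 1 CPM in every model, and 9 averaged less than 1 CPM in every model. E0771 was the highest model for 12 tested members, MMTV-NEU for 8, T12 for 7 and 2250 for 6. How often each model was highest among all tested genes was not counted, so these numbers cannot be read as particular to ABC genes.

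**Figure D1:**
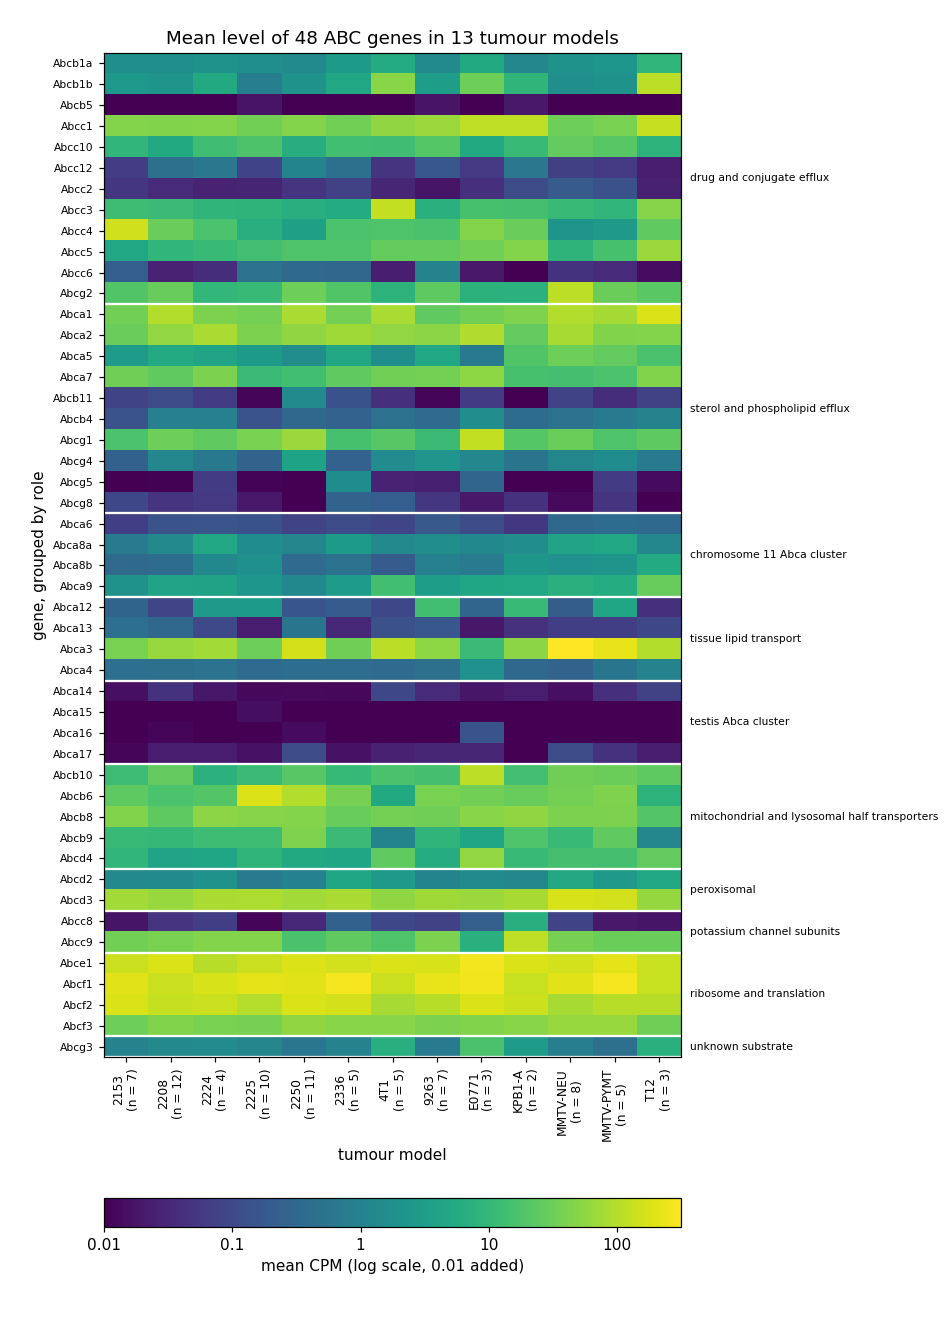
Mean CPM of 48 of the 50 members (rows, grouped by role) in each of the 13 models (columns, with the number of libraries), as colour on a log scale with 0.01 CPM added. Abcf1 and the other ribosome-acting members have high means in every column, while Abcb1b, Abcc4, Abcc8, Abca12 and Abcb6 are high in a few columns.

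Each model was then set against the mean of the other 12 models with edgeR, and a member was called at an adjusted p under 0.05 over all 22847 genes. Among called members, more were lower than higher in 2153 and 2225. In 2153, 8 of 47 were higher and 21 lower, beside 29.4% and 23.6% of all genes. In 2225, 9 were higher and 24 lower, beside 34.2% and 26.8%. Abcb1b, Abcc1, Abcc5 and Abcg4 were among the members lower in both.

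Among called members, more were higher than lower in E0771, MMTV-PYMT, MMTV-NEU and T12. In E0771, 21 of 47 were higher and 9 lower, beside 29.4% and 26.9% of all genes. MMTV-PYMT had 21 higher and 9 lower, beside 31.0% and 20.5%, and MMTV-NEU had 20 higher and 10 lower, beside 34.0% and 28.4%. These directions leaned on the choice of comparison. Against the FVB models alone 10 were higher and 9 lower in MMTV-NEU and 8 and 7 in MMTV-PYMT (19 and 15 calls), and with limma on the authors' table the higher and lower counts were 17 and 13 in MMTV-NEU and 14 and 13 in MMTV-PYMT. In T12, 17 members were higher and 9 lower, beside 24.4% and 23.8% of all genes.

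The other 7 models had more even counts. For 2250, 19 members were higher and 15 lower, beside 32.1% and 27.7% of all genes. Tumours of 4T1 had 13 higher and 13 lower, beside 25.5% and 23.6%. Model 9263 had 11 higher and 15 lower, beside 32.5% and 21.9%, and 9 and 19 with limma on the authors' table. These 2 fits differed mainly in the members called lower. For 2208 the counts were 10 higher and 11 lower, beside 29.4% and 24.7%, and 7 and 14 with limma on the authors' table. In 2336, 11 were higher and 10 lower, beside 30.2% and 25.4%, and in 2224, 9 were higher and 7 lower, beside 24.0% and 14.8%. KPB1-A, with 2 libraries, had 11 higher and 8 lower, beside 24.9% and 14.4%, 11 and 5 with limma on the authors' table, and 10 calls in all without replicate 1. Against the FVB models alone KPB1-A had 11 higher and 13 lower, and without T12 and E0771 in the comparison 14 and 6.

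**Figure D2:**
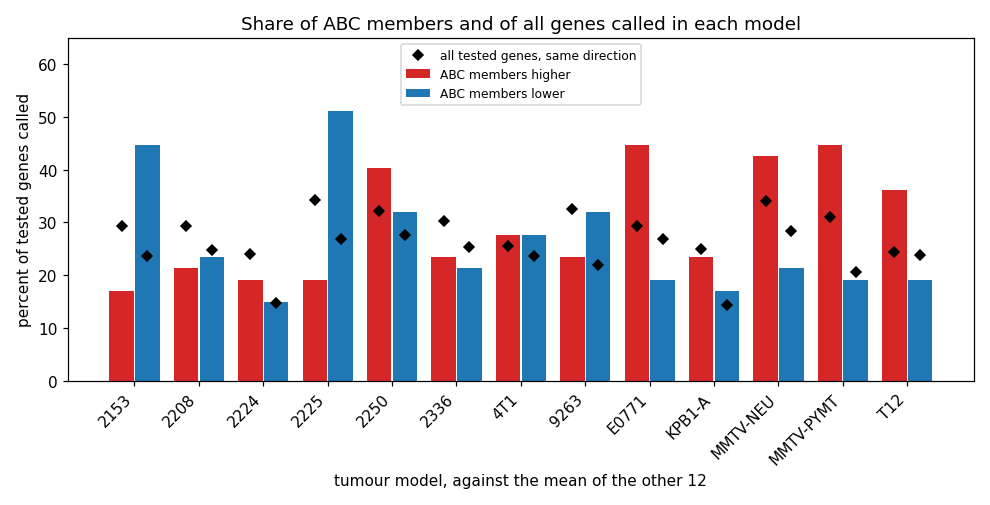
Percent of the 47 tested ABC members called higher (red bars) or lower (blue bars) in each model against the mean of the other 12 models, with diamonds at the percent of all 22847 tested genes called in the same direction. Lower bars stand well above their diamonds in 2153 and 2225, and higher bars above theirs in E0771 and MMTV-PYMT.

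The P-glycoprotein genes were highest in 3 models. Abcb1a and Abcb1b are the rodent genes for P-glycoprotein, which expels hydrophobic drugs, and lie side by side on chromosome 5 (Abcb1b at chr5:8798147-8866315). Abcb1b had 100.7, 109.7 and 122.0 CPM in T12, 38.4, 47.4, 50.6, 55.1 and 56.8 CPM in 4T1 and 29.8, 31.5 and 33.9 CPM in E0771. All 11 of these libraries stood above the other 71, where the highest value was 11.95 CPM, in KPB1-A. The log2 difference from the other models was 4.70 ± 0.20 SE (adjusted p = 1.02e-32) in T12, 3.45 ± 0.18 SE (adjusted p = 2.69e-27) in 4T1 and 2.75 ± 0.23 SE (adjusted p = 3.35e-17) in E0771. KPB1-A, 2224 and 2336 followed with means of 8.65, 5.41 and 5.03 CPM and were not called, and the other 7 models averaged 0.825 to 3.21 CPM, neighbours in this order overlapping. All 7 were called lower, though 9263 was not once T12 and E0771 were left out of the comparison (adjusted p = 0.564). At the low end 2225 averaged 0.825 ± 0.288 CPM (log2 difference -2.97 ± 0.24 SE, adjusted p = 1.19e-18) and MMTV-NEU 1.74 ± 0.461 CPM (-1.79 ± 0.24 SE, adjusted p = 5.79e-10).

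Abcb1a passed the test as higher in the same 3 models over a narrower range. Its level was 6.24, 7.88 and 13.2 CPM in T12, 4.98, 5.03, 5.91, 6.01 and 7.90 CPM in 4T1 and 4.27, 5.79 and 6.08 CPM in E0771, against model means of 1.22 to 2.83 CPM in the other 10. The log2 differences were 2.08 ± 0.36 SE (adjusted p = 1.3e-06), 1.42 ± 0.31 SE (adjusted p = 8.24e-05) and 1.26 ± 0.40 SE (adjusted p = 0.0051) in that order. Abcb1a was also called lower in 9263 and 2250, but not once T12 and E0771 were left out (adjusted p of 0.161 and 0.0745), and neighbours in the order of these 10 models overlapped. Per kb of exon, Abcb1b averaged 2.17 CPM and Abcb1a 0.543 CPM over models. The copies are close in sequence, and how reads common to both were shared out is not stated, so the split is uncertain. Summed, the pair had a log2 difference of 4.12 in T12, 2.92 in 4T1, 2.28 in E0771 and -1.91 in 2225.

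Markers of macrophages and of some other immune cells were higher in the models with the highest P-glycoprotein genes. Of 10 macrophage markers, 9 passed as higher in T12, 9 in 4T1 and 8 in E0771, and none was at 0 there. Their summed level was 1471 to 3368 CPM in those 11 libraries, against 46.3 to 1515 CPM in the other 71. Of 6 natural killer markers 5 were higher in T12, 4 in 4T1 and 5 in E0771. Of 8 T cell markers 4, 7 and 7 were higher in that order, and of 6 dendritic cell markers 3, 2 and 4. Other lists followed Abcb1b less closely. Of 6 B cell markers 4, 0 and 5 were higher in the same order. Of 8 neutrophil markers 3, 8 and 1 were higher, and 4 were lower in E0771. All 8 neutrophil markers were higher in 2153 and 2208, where Abcb1b was called lower. Within 9263 the macrophage sum ran from 46.3 to 1515 CPM, while Abcb1b ran from 1.19 to 6.08 CPM. The 12 luminal markers were lower in T12 and E0771, as given above, and in 4T1 5 were higher and 5 lower. In such bulk samples fewer cells of a type and less RNA per cell cannot be told apart, and the part of these cells in the Abcb1b level was not tested.

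Multidrug resistance-associated proteins followed several models. Abcc4, which exports cyclic nucleotides, prostaglandins and nucleotide-analogue drugs (chr14:118482692-118706219), lay between 124.7 and 164.9, with a median of 150.1 CPM, in the 7 libraries of 2153. E0771 came next with 40.7, 46.1 and 52.8 CPM, so no library of 2153 overlapped it. The log2 difference of 2153 from the other models was 3.59 ± 0.16 SE (adjusted p = 1.8e-32). Means of 29.8 CPM in 2208, 29.2 CPM in KPB1-A and 25.3 CPM in T12 were also called higher, and 2208 overlapped the other two. The call in KPB1-A was lost without either library (adjusted p of 0.145 and 0.0634), and that in T12 against BALB/c models alone (adjusted p = 0.101). Between 15.9 and 18.4 CPM, 4T1, 2224, 2336 and 9263 were not called, and 2225, at 6.90 CPM, was called lower. Abcc4 was lowest in MMTV-NEU (2.15 ± 0.914 CPM, log2 difference -3.05 ± 0.25 SE, adjusted p = 1.41e-18), MMTV-PYMT (2.75 ± 2.13 CPM, -2.62 ± 0.29 SE, adjusted p = 3.48e-12) and 2250 (3.55 ± 2.19 CPM, -2.24 ± 0.20 SE, adjusted p = 9.41e-17). These 3 lowest models had overlapping libraries.

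Abcc3, which exports glucuronides and bile salts, had 82.3, 94.3, 106.1, 120.5 and 210.9 CPM in 4T1 and 41.7, 45.4 and 55.9 CPM in T12, against means of 5.78 to 15.6 CPM in the other 11 models. No library of 4T1 fell as low as the highest of T12. The log2 difference was 3.47 ± 0.18 SE (adjusted p = 1.46e-27) in 4T1 and 1.99 ± 0.25 SE (adjusted p = 2.72e-10) in T12. Macrophage sums were 1471 to 2610 CPM in 4T1, 2760 to 3368 CPM in T12 and 1690 to 3325 CPM in E0771. In E0771 Abcc3 had 10.2, 14.2 and 22.4 CPM and was not called. The part of macrophages in the Abcc3 level was not tested.

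Abcc1, the exporter of glutathione conjugates and leukotriene C4 (chr16:14361558-14475737), split the models in another way. It had 117.8, 122.1 and 137.5 CPM in T12, 104.0, 118.8 and 135.7 CPM in E0771 and 99.9 and 131.2 CPM in KPB1-A, and these 3 models overlapped. Model 9263 also passed as higher (67.7 ± 22.2 CPM, log2 difference 0.32 ± 0.10 SE, adjusted p = 0.0046), though not with limma on the authors' table (adjusted p = 0.0867). The log2 difference was 1.29 ± 0.13 SE (adjusted p = 1.91e-13) in T12, 1.21 ± 0.13 SE (adjusted p = 1.98e-12) in E0771 and 1.16 ± 0.16 SE (adjusted p = 1.04e-08) in KPB1-A. Means of 57.2 CPM in 4T1 and 46.6 CPM in 2224 were not called. The other 7 models were called lower, with means of 32.7 to 45.8 CPM, MMTV-NEU being lowest at 32.7 ± 3.19 CPM. In 2153, 2208 and 2250 that call was lost once T12 and E0771 were left out of the comparison, with adjusted p of 0.624, 0.165 and 0.587.

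Abcc5, another exporter of cyclic nucleotides, was highest in T12 (63.6, 65.3 and 67.5 CPM, log2 difference 1.99 ± 0.19 SE, adjusted p = 7.62e-15), followed by KPB1-A (44.2 and 48.6 CPM, 1.46 ± 0.24 SE, adjusted p = 7.36e-07). It was lowest in 2153, the model with the highest Abcc4, at 4.93 ± 1.78 CPM (-2.05 ± 0.19 SE, adjusted p = 3e-15). Abcc10, which transports taxanes, averaged 26.1 ± 2.83 CPM in MMTV-NEU (1.26 ± 0.10 SE, adjusted p = 1.86e-19), 21.6 ± 4.37 CPM in MMTV-PYMT and 20.4 ± 6.21 CPM in 9263 (0.88 ± 0.11 SE, adjusted p = 3.38e-11), against 5.39 ± 0.215 CPM in E0771. Abcc10 shares 51 exon bases with Dlk2 on the opposite strand.

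Abcg2, the breast cancer resistance protein (chr6:58584523-58695676), lay between 52.2 and 169.4, with a median of 108.7 CPM, in the 8 libraries of MMTV-NEU. The next model, 2250, reached 43.8 CPM at most, so the groups did not overlap. The log2 difference of MMTV-NEU was 2.84 ± 0.12 SE (adjusted p = 1.83e-33). MMTV-PYMT, 2208, 2250 and 9263 also passed as higher, with means of 24.7 to 31.9 CPM. The call in MMTV-PYMT was lost against the FVB models alone (adjusted p = 0.864). T12, 2336 and 2153, at 18.7 to 22.5 CPM, were not called. Lower calls were made in 2225, 2224, 4T1, E0771 and KPB1-A, with means of 7.61 to 10.7 CPM. For KPB1-A the 2 libraries had 4.09 and 11.1 CPM (-1.39 ± 0.33 SE, adjusted p = 0.000342), and the call was lost without replicate 1 (adjusted p = 0.11).

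**Figure D3:**
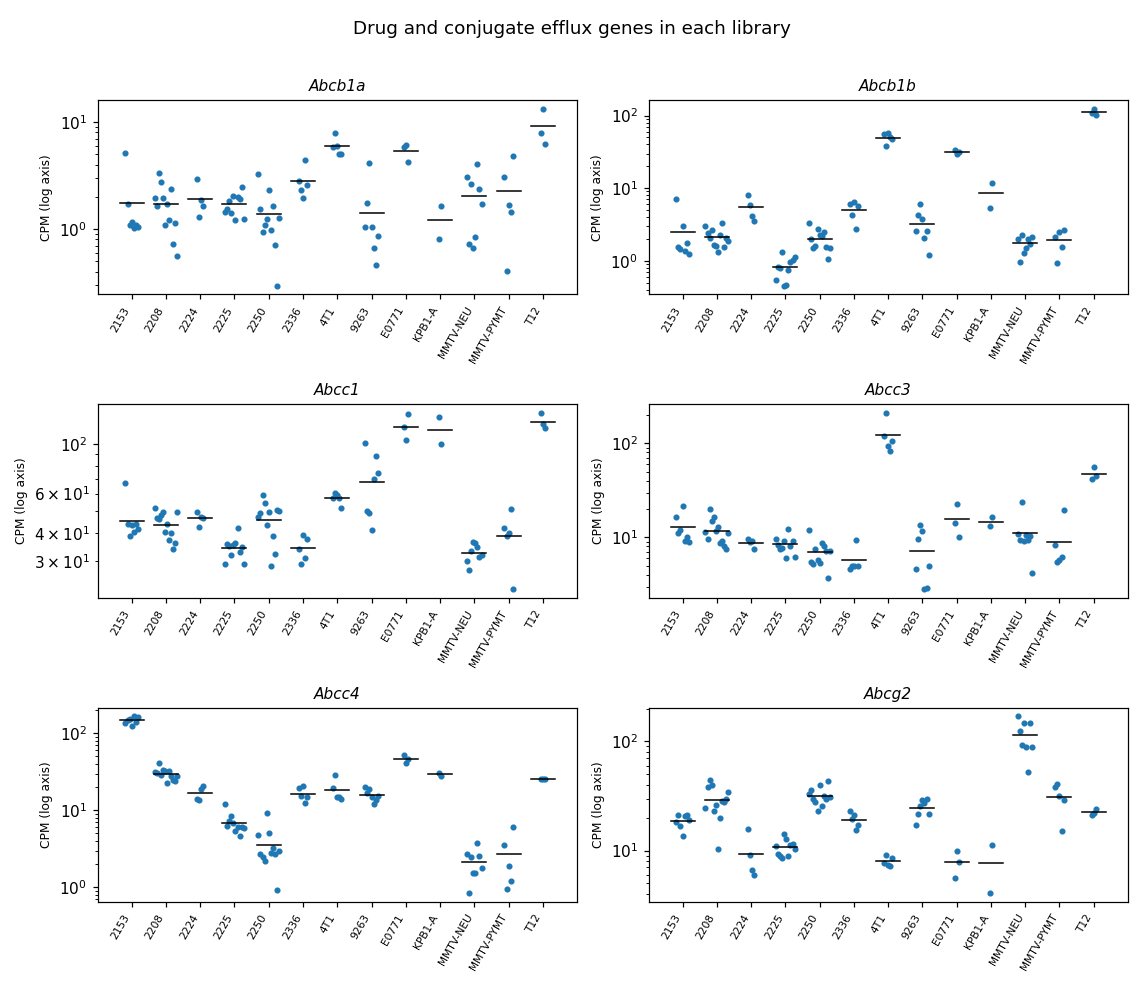
CPM (log axes) of 6 efflux genes in each library (points) with the model mean (line), by tumour model. Abcb1b stands high in T12, 4T1 and E0771, Abcc4 in 2153, Abcc3 in 4T1 and Abcg2 in MMTV-NEU.

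The remaining efflux genes were low. Abcc6, whose loss causes ectopic mineralisation, averaged 1.02 ± 0.557 CPM in 9263 against model means of at most 0.479 CPM elsewhere, and had no count in KPB1-A. Abcc12, of poorly known substrate, averaged 1.07 ± 0.847 CPM in 2250 (log2 difference 3.25 ± 0.25 SE, adjusted p = 4.57e-19) and at most 0.596 CPM in the other 12 models. Abcc2, the conjugate pump of the bile canaliculus, did not average over 0.184 CPM in any model. Abcb5 had a mean of at most 0.0107 CPM.

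Other genes of drug handling were counted beside the pumps. Of 16 tested regulators and conjugating enzymes, 9 were higher and 2 lower in 9263, 8 and 3 in 2225, 8 and 2 in 2336, and 7 and 2 in KPB1-A. In 4T1, 4 were higher and 8 lower, and in 2208, 3 were higher and 8 lower. Nqo1, a quinone reductase, averaged 77.4 CPM in KPB1-A (3.14 ± 0.37 SE, adjusted p = 4.85e-11). In the models with the highest Abcb1b, 1 of 16 was higher in T12, 4 in 4T1 and 4 in E0771. The higher counts in 4T1 and E0771 were near the 25.5% and 29.4% of all genes given above. In 4T1 the lower count of 8 of 16 was not near the 23.6% of all genes. Shares for the other models are given above as well.

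Sterol and phospholipid exporters were led by different models from gene to gene. Abca1, which loads cholesterol and phospholipid onto apolipoprotein A-I (chr4:53030787-53159895), had 147.2, 188.9 and 220.7 CPM in T12 (log2 difference 1.84 ± 0.30 SE, adjusted p = 4.29e-07). It also passed as higher in 2208, MMTV-NEU and 2250, whose means were 83.3 to 97.7 CPM, but a library of 2208 reached 216.6 CPM and a library of MMTV-NEU 221.3 CPM, so these overlapped T12. Means of 85.6 CPM in 4T1, 79.8 CPM in MMTV-PYMT, 42.6 CPM in KPB1-A and 41.4 CPM in 2224 were not called. In 2336, 2225 and 2153, at 35.1 to 36.1 CPM, Abca1 was called lower, and in 2336 the call was lost without replicate 1, 2, 3 or 5 (adjusted p of 0.0961 to 0.148). Abca1 was lowest in 9263, at 25.3 ± 14.5 CPM (-1.28 ± 0.28 SE, adjusted p = 7.85e-05). The call in MMTV-NEU was lost against the FVB models alone (adjusted p = 0.0959).

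Abcg1, which adds cholesterol to high-density lipoprotein (chr17:31057675-31117988), had 101.1, 107.4 and 154.2 CPM in E0771, above every library of the next model, 2250, at 48.2 to 91.4 CPM. Its log2 difference was 2.33 ± 0.29 SE (adjusted p = 1.67e-10) in E0771 and 1.37 ± 0.19 SE (adjusted p = 3.39e-09) in 2250. At 39.96 CPM on average 2225 was also called higher, and 2208, MMTV-NEU, 2224, T12, 4T1, KPB1-A and MMTV-PYMT, at 18.4 to 31.95 CPM, were not called. The lower calls in 2153 (16.7 CPM) and 2336 (15.3 CPM) were lost once T12 and E0771 were left out, with adjusted p of 0.072 and 0.0574. In 9263 the 7 libraries spread from 2.32 to 25.9 CPM (-1.34 ± 0.29 SE, adjusted p = 5.75e-05). The 3 libraries of 9263 with 16.1, 23.2 and 25.9 CPM had macrophage sums of 865.2, 1193 and 1515 CPM, and the other 4, with 2.32 to 6.28 CPM, had sums of 46.3 to 159.9 CPM. Those 3 libraries carry consecutive numbers in their titles and the other 4 do not belong to that run, so the split cannot be told apart from library number. Abcg3 in 9263 divided along the same libraries, with 0.905 to 2.26 CPM in those 3 and 0.111 to 0.219 CPM in the other 4.

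Partners of sterol export were also mostly higher in E0771. Of 17 sterol regulators and partners, 10 were higher and 3 lower there, with a median log2 difference of 0.52, against -0.11 for all genes. Nr1h3, the nuclear receptor that drives Abca1 and Abcg1 transcription, averaged 48.5 ± 16.1 CPM in E0771 (3.50 ± 0.21 SE, adjusted p = 3.17e-25) and 3.34 to 5.61 CPM in the other models. Pltp, the phospholipid transfer protein, averaged 258.2 ± 48.7 CPM (2.80 ± 0.37 SE, adjusted p = 5.36e-10). Apoa1 went the other way in E0771, with a log2 difference of -2.49, and was called lower. Abca1 itself averaged 34.6 ± 7.02 CPM in E0771 and was not called. In T12, with the highest Abca1, 6 of the 17 were higher and 7 lower, and Soat1, which esterifies cholesterol, averaged 215.4 ± 11.3 CPM (2.28 ± 0.14 SE, adjusted p = 1.84e-24). In MMTV-NEU the sterol and fatty acid regulator Srebf1 averaged 2392 ± 1277 CPM (3.40 ± 0.13 SE, adjusted p = 6.14e-37).

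Among the other Abca members of this group, Abca5 lay between 20.6 and 39.3, with a median of 34.7 CPM, in MMTV-NEU (2.79 ± 0.13 SE, adjusted p = 1.03e-31) and had 20.1, 22.4, 23.1, 30.97 and 32.96 CPM in MMTV-PYMT (2.48 ± 0.15 SE, adjusted p = 6.44e-24). KPB1-A and T12 also passed as higher, at 18.7 and 16.2 CPM on average. E0771 was lowest, with 0.582, 0.670 and 0.957 CPM (-3.09 ± 0.33 SE, adjusted p = 3.99e-13). Against the FVB models alone the calls were lost, with adjusted p of 0.0578 in MMTV-NEU and 0.836 in MMTV-PYMT. Abca2 was highest in E0771 (93.5 ± 14.1 CPM, 0.86 ± 0.15 SE, adjusted p = 6.05e-07) and 2224 (84.6 ± 5.72 CPM, 0.70 ± 0.13 SE, adjusted p = 7.33e-06), which overlapped, and lowest in KPB1-A (25.8 and 27.6 CPM, -1.10 ± 0.22 SE, adjusted p = 2.66e-05). Abca7, which acts in phagocytosis and lipid export, had 51.6, 54.5 and 55.2 CPM in E0771 (1.18 ± 0.17 SE, adjusted p = 3.56e-09), above all libraries of T12 (43.4 to 44.2 CPM, log2 difference 0.87). T12, 4T1 and 9263 also passed as higher for Abca7, as did 2224 (0.78 ± 0.15 SE, adjusted p = 1.56e-05) and 2153 (0.45 ± 0.12 SE, adjusted p = 0.00137).

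Transporters of bile were near the limit of detection in most models. Abcb11, the bile salt export pump, averaged 1.41 ± 0.333 CPM in 2250, where all 11 libraries lay above those of the next model, 2336 (0.124 ± 0.0602 CPM), and had no count in KPB1-A. Abcg5 and Abcg8 form a pair that exports plant sterols. Abcg5 had 0.589, 0.889, 1.48, 2.21 and 2.61 CPM in 2336 and 0.205, 0.283 and 0.348 CPM in E0771, and no count in any library of 2153, 2250, KPB1-A or MMTV-NEU. Abcg8 has a RefSeq start 109 bases away and a second one inside Abcg5, and gene counts do not tell which was used. It averaged 0.263 ± 0.163 CPM in 2336 and 0.0102 ± 0.00899 CPM in E0771, and was not called in E0771. In 4T1 both genes were called higher, but their levels differed. Abcg8 had 0.102, 0.129, 0.207, 0.259 and 0.370 CPM there, overlapping 2336, and Abcg5 had at most 0.0270 CPM. Abcg8 was also called higher in 2153 (log2 difference 1.89), where Abcg5 had no count. Exons of the pair overlap by 82 bases on opposite strands, and without strand those reads cannot be told apart. Abcg4, a sterol exporter of brain, averaged 4.04 ± 1.63 CPM in 2250 (2.42 ± 0.18 SE, adjusted p = 7.18e-20) and was lowest in 2153, 2336 and 2225, at 0.237 to 0.261 CPM.

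Abcb4, which flips phosphatidylcholine into bile, moved with skeletal muscle markers in several models. All 8 muscle markers were higher in E0771 and in 2208. Abcb4 was called higher in E0771 (0.764, 1.31 and 2.65 CPM, 1.92 ± 0.62 SE, adjusted p = 0.00613) and in 2208 (1.09 ± 0.38 SE, adjusted p = 0.0125). In 2208 a single library had 6.74 CPM and a muscle sum of 6285 CPM, while the other 11 had 0.114 to 1.28 CPM, and without that library the log2 difference was -0.16 (adjusted p = 0.782). In E0771 the libraries with 0.764, 1.31 and 2.65 CPM had muscle sums of 533.9, 1715 and 3237 CPM, and without the library with the highest values the log2 difference was 1.32 (adjusted p = 0.169). The highest Abcb4 value also belonged to the library with the highest muscle sum in MMTV-NEU, MMTV-PYMT and 2224. T12 was an exception, with 0.970, 1.01 and 1.05 CPM and muscle sums of 1.15 to 1.27 CPM. Apart from leaving out these libraries, the part of muscle in the Abcb4 level was not tested.

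Abca6, Abca8a, Abca8b and Abca9, whose substrates are poorly known, lie beside Abca5 on chromosome 11. Abca9 had 19.7, 25.4 and 39.6 CPM in T12 (2.87 ± 0.42 SE, adjusted p = 2.09e-08) and 8.46, 9.43, 12.9, 13.7 and 23.6 CPM in 4T1 (1.73 ± 0.38 SE, adjusted p = 9.6e-05), which overlapped. Abca8b had 3.31, 5.08 and 8.75 CPM in T12 (2.84 ± 0.40 SE, adjusted p = 8.83e-09), above both libraries of the next model, KPB1-A (2.29 and 2.46 CPM), though a library of MMTV-PYMT reached 4.34 CPM. Abca6 averaged at most 0.376 CPM in any model, in MMTV-PYMT, where a single library had 1.36 CPM and the other 4 had 0.0224 to 0.327 CPM. Added to its close copy Abca8a, Abca8b had a log2 difference of 1.30 in T12. Abca8a was higher in 2224 (3.91, 4.72, 5.18 and 5.33 CPM, 1.51 ± 0.55 SE, adjusted p = 0.0238), but this call was lost in the sum of the copies (adjusted p = 0.0622) and without replicate 1, 2 or 3 (adjusted p up to 0.0742).

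In MMTV-PYMT and MMTV-NEU, Abca8a moved with adipocyte markers. MMTV-PYMT libraries had 0.0816, 0.135, 0.679, 3.34 and 19.98 CPM of Abca8a beside adipocyte sums of 8.92, 8.79, 9.40, 76.2 and 643.6 CPM in the same order. The call there (1.53 ± 0.50 SE, adjusted p = 0.00794) turned to a log2 difference of -0.66 without the library that held 19.98 CPM, which was replicate 5. In MMTV-NEU the highest library had 13.3 CPM beside an adipocyte sum of 627.5 CPM. Without that library the call (1.29 ± 0.43 SE, adjusted p = 0.00694) was lost (adjusted p = 0.149). The highest libraries of MMTV-PYMT and MMTV-NEU also had the highest muscle sums of their models (3822 and 2716 CPM). Adipose and muscle tissue therefore cannot be told apart there. Of the 8 adipocyte markers, 8 were higher in MMTV-NEU and 7 in MMTV-PYMT. Their summed level was 8.15 to 643.6 CPM in these 13 libraries, against 3.80 to 161.0 CPM in the other 69, and none was at 0.

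Abca3 varied widely among the transporters of tissue lipids. Abca3 carries surfactant phospholipid into lamellar bodies of the lung. It lay between 226.9 and 685.5, with a median of 261.3 CPM, in MMTV-NEU (2.39 ± 0.12 SE, adjusted p = 1.54e-30), where 1 library stood far above the others, at 226.9 to 322.7 CPM. MMTV-PYMT had 140.9, 196.0, 210.7, 259.7 and 305.9 CPM (1.84 ± 0.14 SE, adjusted p = 6.25e-19). E0771 was lowest, with 10.6, 11.2 and 13.5 CPM (-2.76 ± 0.28 SE, adjusted p = 5.64e-14), below every library of every other model. Abca3 shares 914 exon bases with D330041H03Rik on the opposite strand, a gene of at most 11.3 CPM on average in any model.

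Abca12, which loads glucosylceramide into lamellar granules of the epidermis, averaged at least 1 CPM in 9263, KPB1-A, MMTV-PYMT, 2225 and 2224 and less in the other 8 models. It ran from 2.26 to 29.5 CPM in 9263 (4.96 ± 0.43 SE, adjusted p = 9.38e-17) and was 10.2 and 11.4 CPM in KPB1-A (4.62 ± 0.56 SE, adjusted p = 1.21e-10). At the low end T12 averaged 0.0326 ± 0.0303 CPM, 2208 0.0763 ± 0.0505 CPM and 4T1 0.0852 ± 0.158 CPM. In 4T1 a library with 0.368 CPM stood apart from the other 4, and without it the log2 difference was -5.31 in place of -2.99 ± 0.83 SE (adjusted p = 0.00176). The MMTV-PYMT libraries had 0, 0.103, 0.157, 0.561 and 21.03 CPM. The call in MMTV-PYMT (3.21 ± 0.47 SE, adjusted p = 1.57e-08) rested on the last of these, replicate 1, without which the log2 difference was -1.20 (adjusted p = 0.134).

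Skin barrier and squamous genes moved with Abca12 in 9263 and MMTV-PYMT. Of 9 skin lipid barrier genes, 7 were higher and 2 lower in 9263, 7 and 1 in MMTV-PYMT, and 3 and 2 in KPB1-A. Pnpla1, which makes skin ceramides, was higher in 9263 (6.99 ± 0.52 SE, adjusted p = 5.87e-20). Of 10 squamous markers, 10 were higher in 9263, 9 in MMTV-PYMT, 9 in 2224 and 1 in KPB1-A. In E0771 7 were higher, with sums of 20.3 to 120.0 CPM, but Abca12 averaged 0.279 CPM and was not called (adjusted p = 0.329). In 2336 4 were higher and 1 lower, and Abca12 averaged 0.192 CPM and was not called. Squamous sums were 50.4 to 641.8 CPM in 9263 and 55.4 to 61.2 CPM in KPB1-A. The MMTV-PYMT library with 21.0 CPM of Abca12 had a squamous sum of 845.7 CPM, and the other 4 had sums of 18.1 to 82.9 CPM. The KPB1-A sums lay near the low end of the 9263 range. The part of squamous cells in the Abca12 level was not tested.

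Abca4, the retinal flippase, averaged 1.89 ± 0.631 CPM in E0771 (2.11 ± 0.27 SE, adjusted p = 1.43e-10) and at most 1.02 CPM in other models. Abca13 averaged at most 0.542 CPM in any model. Of the testis cluster, Abca16 averaged 0.138 CPM in E0771 and at most 0.00343 CPM elsewhere, with no count in 10 models. Abca17 reached 0.101 CPM in MMTV-NEU, and Abca14 and Abca15 were not tested.

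Transporters of mitochondria and lysosomes separated single models. Abcb6, a porphyrin transporter (chr1:75171717-75180392), lay between 138.3 and 246.9, with a median of 175.4 CPM, in the 10 libraries of 2225 (2.85 ± 0.09 SE, adjusted p = 8.2e-42). Model 2250 came next (71 to 108.6 CPM, 1.81 ± 0.09 SE, adjusted p = 1.31e-29), without overlap. T12 and 4T1 were lowest, at 7.97 ± 0.399 and 5.49 ± 0.310 CPM (-2.64 ± 0.18 SE, adjusted p = 2.03e-21 in 4T1). The exons of Abcb6 share 2932 bases with Gm29253 on the same strand, whose own highest mean was 17.9 CPM, in 2225, so some reads may belong to either.

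Of 14 heme and iron-sulfur genes 5 were higher and 5 lower in 2225, near the 34.2% and 26.8% of all genes. Ppox, which makes protoporphyrin, averaged 535.1 ± 111.8 CPM in 2225 (4.02 ± 0.09 SE, adjusted p = 3.05e-51), against 17.4 to 57.7 CPM in the other models. The importer Slc25a37 was lower there (-1.31 ± 0.13 SE, adjusted p = 7.99e-15).

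E0771 led for Abcb10 and Abcd4. Abcb10, a mitochondrial inner membrane transporter needed for heme synthesis, had 99.8, 117.7 and 121.8 CPM in E0771 (2.74 ± 0.10 SE, adjusted p = 9.23e-37), and the highest library of the next model, MMTV-NEU, had 44.7 CPM. Abcb10 was lowest in 2224 (6.74, 7.80, 8.58 and 8.59 CPM, -1.42 ± 0.14 SE, adjusted p = 2.41e-14). Abcd4, which moves cobalamin out of lysosomes, had 59.1, 59.9 and 61.4 CPM in E0771 (2.70 ± 0.11 SE, adjusted p = 8.36e-35), against 25.6 to 27.0 CPM in T12, the next model. Abcd4 was low in 2208 (4.19 ± 0.710 CPM, -1.46 ± 0.09 SE, adjusted p = 1.12e-24), 2336 (4.48 ± 0.468 CPM, -1.36 ± 0.13 SE, adjusted p = 6.92e-15) and 2224 (4.50 ± 0.298 CPM, -1.35 ± 0.14 SE, adjusted p = 1.47e-12), which overlapped one another.

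Abcb9, a lysosomal peptide transporter, lay between 27.4 and 60.7, with a median of 37.7 CPM, in 2250 (2.47 ± 0.13 SE, adjusted p = 2.6e-28) and averaged 25.5 ± 11.6 CPM in MMTV-PYMT (1.64 ± 0.18 SE, adjusted p = 1.57e-12), with overlap. It was lowest in 4T1 (0.915, 0.928, 1.03, 1.24 and 1.29 CPM, -3.30 ± 0.28 SE, adjusted p = 5.3e-17) and T12 (1.12, 1.15 and 1.34 CPM, -3.13 ± 0.36 SE, adjusted p = 7.32e-12). The related peptide transporters of antigen presentation, Tap1 and Tap2, which fall outside the symbol pattern, were highest in E0771 at 380.8 ± 47.5 and 313.2 ± 56.7 CPM and lowest in 2336 at 16.2 ± 5.72 and 17.5 ± 9.28 CPM. Abcb9 in E0771 averaged 4.38 ± 0.764 CPM and was called lower, so these peptide transporters differed in direction. Abcb8, a mitochondrial member, varied less, with a ratio of highest to lowest model mean of 2.80. Abcb8 had 38.6 and 73.5 CPM in KPB1-A (0.58 ± 0.18 SE, adjusted p = 0.00636), a call that ended without replicate 1 (log2 difference -0.04).

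**Figure D4:**
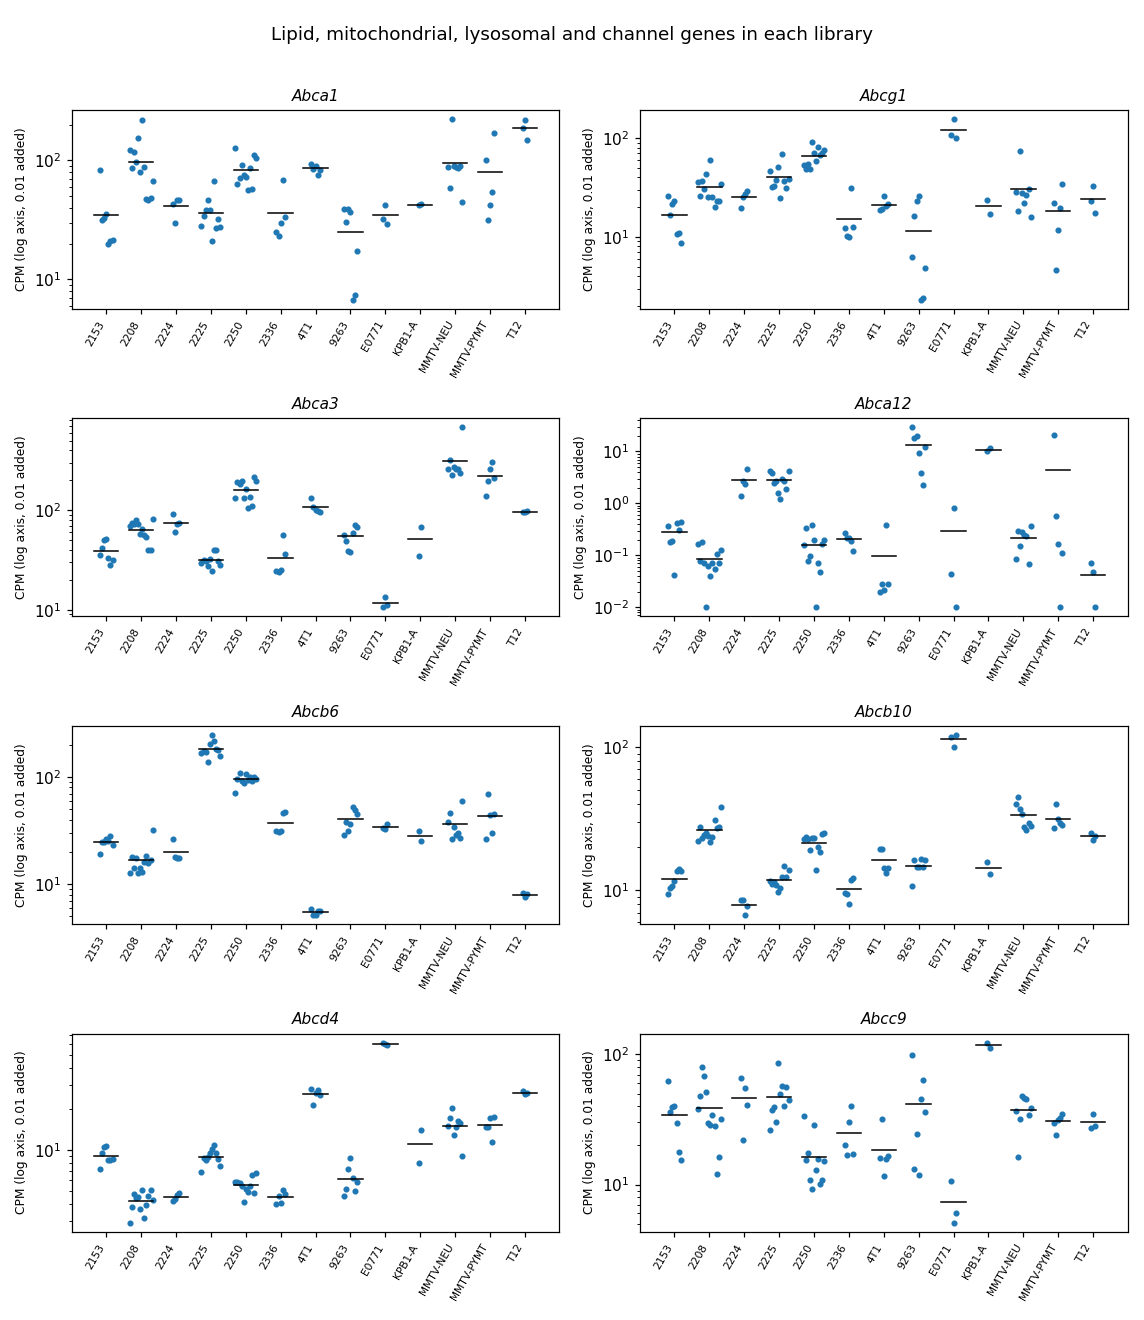
CPM (log axes, 0.01 CPM added) of 8 further members in each library (points) with the model mean (line), by tumour model. E0771 stands apart for Abcg1, Abcb10 and Abcd4, 2225 for Abcb6 and KPB1-A for Abcc9, while Abca3 is lowest in E0771.

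Peroxisomal Abcd3 was higher in both MMTV models. Abcd3, which imports branched-chain and bile acid intermediates, lay between 116.4 and 216.5, with a median of 162.3 CPM, in MMTV-NEU (1.08 ± 0.08 SE, adjusted p = 2.2e-20) and had 131.1, 135.6, 146.8, 147.8 and 226.3 CPM in MMTV-PYMT (1.0 ± 0.10 SE, adjusted p = 1.68e-14). Means in the other 11 models were 57.1 to 88.6 CPM. Of 11 other peroxisomal genes, 10 were higher and 0 lower in MMTV-NEU, and 5 were higher and 2 lower in MMTV-PYMT. Ehhadh, an enzyme of peroxisomal beta-oxidation, averaged 29.8 ± 8.52 CPM in MMTV-NEU (2.88 ± 0.13 SE, adjusted p = 1.21e-32) and 19.8 ± 9.86 CPM in MMTV-PYMT (2.24 ± 0.16 SE, adjusted p = 3.79e-21). In T12, 0 of the 11 were higher and 6 lower.

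Abcd2, which imports very-long-chain fatty acyl-CoA, averaged 5.14 ± 3.56 CPM in MMTV-NEU (1.58 ± 0.35 SE, adjusted p = 7.08e-05), and T12 and 2336 also passed as higher. The 2336 libraries had 1.15, 1.88, 2.73, 4.12 and 12.4 CPM, so a single library stood far above the others. The 3 MMTV-NEU libraries with adipocyte sums of 8.15 to 12.7 CPM had 0.747 to 1.22 CPM of Abcd2, and the other 5, with sums of 88.0 to 627.5 CPM, had 6.18 to 9.55 CPM.

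Channel-regulating members were highest in KPB1-A. Abcc9, the sulfonylurea receptor of vascular potassium channels, had 112.7 and 123.2 CPM in KPB1-A (2.08 ± 0.36 SE, adjusted p = 1.44e-06). Both values lay above every other library, including those of the next model, 2225 (26.2 to 86.2 CPM, 0.63 ± 0.21 SE, adjusted p = 0.00626). The call in 2225 was lost once T12 and E0771 were left out (adjusted p = 0.0759). E0771 was lowest, with 5.09, 6.09 and 10.7 CPM (-2.27 ± 0.47 SE, adjusted p = 2.31e-05). Kcnj8, the pore subunit that pairs with Abcc9, averaged 23.5 ± 11.7 CPM in 2225 (1.25 ± 0.22 SE, adjusted p = 1.54e-06) and was not called in KPB1-A, where its libraries ran from 11.1 to 24.3 CPM.

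Pericyte markers, a list that includes Kcnj8, moved with Abcc9. Of 10, 8 were higher in KPB1-A and 9 in 2225, and 7 were lower in E0771. Their sums were 1168 and 1172 CPM in KPB1-A and 948.6 to 1559 CPM in 2225, against 100.1 to 1215 CPM in the other 70 libraries, and none was at 0 in KPB1-A and 2225. Model 9263 also had 9 of 10 higher, with sums of 624.5 to 1215 CPM, but its Abcc9 of 11.8 to 98.5 CPM was not called. The part of pericytes in the Abcc9 level was not tested.

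Abcc8, the sulfonylurea receptor of insulin-secreting cells, had 1.93 and 11.4 CPM in KPB1-A (7.45 ± 0.50 SE, adjusted p = 8.17e-22), and no library of another model exceeded 0.523 CPM. The 2 libraries lay far apart, and the log2 difference was 5.57 without replicate 1 and 8.16 without replicate 2. Kcnj11, its pore subunit, averaged 0.289 CPM in KPB1-A and was not called there.

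**Figure D5:**
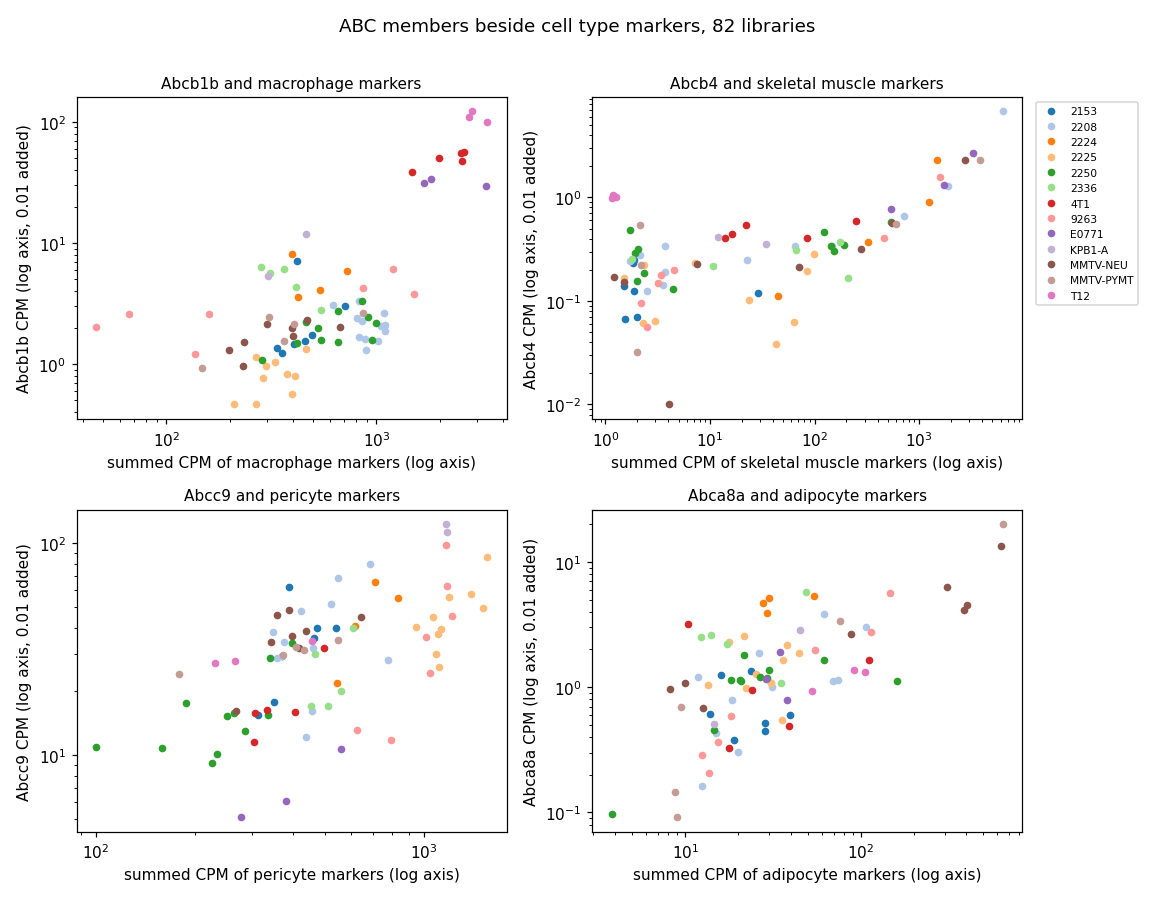
CPM (log axes, 0.01 CPM added on the vertical axes) of 4 members against the summed CPM of a marker list (log axis) in 82 libraries, coloured by model. Abcb1b is high in the T12, 4T1 and E0771 libraries, which also have high macrophage sums, Abcb4 and Abca8a are highest in libraries with muscle sums of 6285 CPM and adipocyte sums of 643.6 CPM, and Abcc9 is highest in KPB1-A.

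Ribosome-acting members varied little and were expressed throughout. Ratios of highest to lowest model mean were 2.54 for Abce1, 2.05 for Abcf1, 2.24 for Abcf2 and 1.97 for Abcf3. Abce1, which splits ribosomes after termination, had 241.5, 260.2 and 293.7 CPM in E0771 (0.76 ± 0.14 SE, adjusted p = 4.75e-06) and was lower in 2224, with 90.8, 99.5, 108.5 and 118.4 CPM (-0.70 ± 0.14 SE, adjusted p = 4.45e-05). Abcf1, a translation initiation factor partner, was higher in MMTV-PYMT (0.58 ± 0.08 SE, adjusted p = 6.19e-09) and 2336 (0.58 ± 0.08 SE, adjusted p = 6.68e-09). Abcf2 was higher in E0771 (0.58 ± 0.13 SE, adjusted p = 6.54e-05), 2153 (0.53 ± 0.09 SE, adjusted p = 2.47e-07) and 2336 (0.43 ± 0.10 SE, adjusted p = 0.000195), and Abcf3 in MMTV-NEU (0.51 ± 0.05 SE, adjusted p = 1.84e-13) and MMTV-PYMT (0.53 ± 0.07 SE, adjusted p = 1.53e-10). Other higher calls were those of Abcf2, Abcf3 and Abce1 in 2250, with log2 differences of 0.54, 0.32 and 0.21. Abcf1 was also called higher in E0771 (0.47) and 9263 (0.24), and Abce1 in MMTV-PYMT (0.34). Against the FVB models alone the Abcf3 calls in MMTV-NEU and MMTV-PYMT were lost (adjusted p of 0.08 and 0.0819). Of 7 other genes of ribosome release and recycling, 4 were higher and 1 lower in E0771, and 4 and 2 in 2336. Pelo, a rescue factor for stalled ribosomes, averaged 43.02 ± 5.95 CPM in 2336 (1.16 ± 0.12 SE, adjusted p = 1.54e-13).

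Abcg3, a rodent gene of unknown substrate, had 11.2, 16.7 and 21.1 CPM in E0771 (3.57 ± 0.33 SE, adjusted p = 1.28e-15), 5.56, 7.24 and 8.35 CPM in T12 (2.25 ± 0.37 SE, adjusted p = 4.75e-07) and 3.95, 6.79, 7.44, 7.88 and 8.07 CPM in 4T1 (2.20 ± 0.31 SE, adjusted p = 4.26e-09). T12, 4T1 and E0771 also had the highest Abcb1b, and their macrophage sums are given above. It was lowest in MMTV-PYMT, at 0.455 ± 0.351 CPM (-2.0 ± 0.46 SE, adjusted p = 0.000179).

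Cftr, the chloride channel of this superfamily that falls outside the symbol pattern, lay between 328.7 and 452.8 CPM in the 12 libraries of 2208. T12 came next, with 13.99 to 28.5 CPM, and no library of E0771 or MMTV-NEU had a count. Model 2208 otherwise had no member that the naming rule took as higher, since none of its 10 higher members stood above the mean of the other models in every library.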

How the data were processed

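RNA from 82 untreated tumours of 13 models had been sequenced. The authors deposited expected counts per gene (47480 genes) and a normalized signal table. STAR, SAMtools, Picard, Salmon and mm10 are named, without roles or versions for these steps, per the submitters' processing notes. The counting of strand and of reads shared by copies is not given in the sources used here. Of the deposited expected counts 85.55% were whole and 52.65% zero, and no mitochondrial symbol was present. Each value of the deposited signal table equalled the count divided by percentile 75 of that library's non-zero counts, times 1000, with 1 in place of each 0 (largest relative deviation 5.11e-15).

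Counts were rounded and fitted with edgeR 4.0.16 in R 4.3.3 (filterByExpr with a minimum count of 10 and total of 15, TMM scaling, quasi-likelihood, robust, 1 mean per model, 69 residual degrees of freedom). The F test compared 13 models, and each model was set against the other 12, whose means weighed equally. Benjamini-Hochberg adjustment covered 22847 genes, with a threshold of 0.05. The SE is the absolute log2 difference over the square root of F. CPM used TMM effective library sizes. The fit was tested on simulated data. Replicate numbers follow accession order and only name libraries.

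Alternatives were DESeq2 1.42.0, its size factors in edgeR, limma 3.58.1 on the log2 of the deposited signal table, no filter, summed copies, other reference models and left-out libraries. The members, gene lists and markers were chosen with earlier results of these data known. Per model, up to 3 higher and 2 lower called members with at least 1 CPM and with every library on 1 side of the mean of the others were described. Other members named beyond that rule, and members called in few models, were chosen after their values were seen. Positions were taken from the GENCODE M21 annotation of mm10, and 12 members share exon bases with another gene. Results on 2 members and 1 other gene are not reported here.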

Additional observations from a re-analysis of the deposited data

Results flagged for a closer look

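Among members described above, 9 of 53 groups of 4 to 10 libraries had a library far from the others of its model by Dixon's criterion. The nominal rate of the criterion is about 1 in 20. It is no measure of chance here, because some of these members were chosen after their values were seen.

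Abca8a stood apart at 19.98 CPM in MMTV-PYMT replicate 5 and at 13.3 CPM in MMTV-NEU replicate 6, the libraries of these models with the highest adipocyte sums (643.6 and 627.5 CPM) and muscle sums (3822 and 2716 CPM). Abca12 stood apart at 21.0 CPM in MMTV-PYMT replicate 1, whose squamous sum was 845.7 CPM, and at 0.368 CPM in 4T1 replicate 4. Abca3 reached 685.5 CPM in MMTV-NEU replicate 8. Abcd3 reached 226.3 CPM in MMTV-PYMT replicate 2. Abcc9 reached 86.2 CPM in 2225 replicate 5, and Abcg4 reached 0.734 CPM in 2225 replicate 4. Abcg3 reached 2.26 CPM in 9263 replicate 4, the library of 9263 with the highest macrophage sum (1515 CPM). The part of these cells in the values was not tested.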

How the results depend on the processing

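Of 1180 alternative values for 140 log2 differences, 1131 kept direction and call, 44 lost the call and 5 reversed. Reversals among these 140 came with a left-out library or limma. Without each library in turn, Abca12 in MMTV-PYMT had log2 differences of -1.20 to 3.53, Abca8a in MMTV-PYMT -0.66 to 1.85 (and -0.69 with limma on the authors' table), Abcb4 in 2208 -0.16 to 1.20 (2 libraries tried) and Abcb8 in KPB1-A -0.039 to 0.91. Of 147 alternative counts of called members, 144 were within 1.5 times the main count. The exceptions were KPB1-A without replicate 1, with 10 calls against 19 (13 without replicate 2, within that limit), and the comparison with the same strain, which gave 19 in MMTV-NEU and 15 in MMTV-PYMT, against 30 in each. For KPB1-A the remaining library was assumed to vary like the other models. The causes were not tested. Of 341 calls, DESeq2 kept 330, limma on the authors' table kept 304, the absence of a filter 329 and a comparison without T12 and E0771 310. Limma on the authors' table reversed 8 of the 341 calls, and the comparison without T12 and E0771 reversed 2. Of 311 calls that could be set against the same strain, 252 were kept, 52 were lost and 7 reversed. Limma on the authors' table moved the median of all genes by -0.11 (2250), -0.14 (9263, MMTV-NEU), -0.15 (MMTV-PYMT) and 0.14 (T12) on the log2 scale. Leaving out replicates 9 of 2208, 3 of 9263, and 6 and 8 of MMTV-NEU was chosen after seeing the data. No paired analysis was possible because the labels give no replicate numbers shared between models. Members under 1 CPM in every model are limited by depth.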
